A study of Mus musculus with 30 samples.

Results

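The death ligands Fas ligand (Fasl) and TRAIL (Tnfsf10) and the cytokines TNF (Tnf), lymphotoxin alpha (Lta) and lymphotoxin beta (Ltb) were followed by chromatin accessibility in cultured mouse splenic natural killer (NK) cells. Members are those peaks that the deposited ATAC-seq table assigns to 1 of the 5 genes, 31 of its 38526 peaks: 21 of Fasl, 6 of Tnfsf10, 2 of Tnf, 1 of Lta and 1 of Ltb. ATAC-seq uses a transposase to tag open DNA, so a peak measures how open a stretch of chromatin is and not how much RNA its gene makes. In these bulk libraries, fewer cells with an open site and a less open site per cell cannot be told apart.

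The 30 libraries fall into 8 groups by genotype, prostaglandin E2 (PGE2) and stimulation. Wild-type (WT) cells came from C57BL/6J mice, and knockout (KO) cells from GzmbCrePtger2-/-Ptger4fl/fl mice, which lack the PGE2 receptor gene Ptger2 and carry floxed alleles of the other receptor gene, Ptger4, with a Cre named for the granzyme B gene. The Cre is in the KO mice only, so an effect of Cre and an effect of receptor loss cannot be told apart. Every group, the untreated ones included, had first spent 5 days in culture in the presence of IL-2 plus IL15:IL15Ra. PGE2 groups then received 100 ng/ml PGE2 over 5 h. In stimulated groups the activating receptor NK1.1 was engaged during the final 4 of these hours, once 1 h of PGE2 or no treatment had passed. Groups hold 4 libraries, except resting (unstimulated) WT with PGE2 and resting untreated KO with 3 each. Whether replicates came from different mice or culture wells is not stated in the labels, and the spread behind each p-value may therefore be technical.

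Libraries held 8444350 to 20153816 reads in peaks, and 1 read was worth 0.6628 to 1.6644 normalised counts, the unit of all levels below. The Ptger2 promoter peak lay at 560 to 1109 in the 15 WT libraries and at 83.6 to 247 in the 15 KO libraries. An exon peak of Ptger4 lay at 434 to 685 in WT and at 56.2 to 152 in the KO, while the Ptger4 promoter peak overlapped between genotypes (822 to 1455 in WT and 901 to 1605 in the KO). All 6 NK marker genes had a promoter peak. None of 5 T cell and none of 5 B cell marker genes had one, while 1 of 5 myeloid (Cd14, 165 to 311) and 1 of 4 other innate lymphoid markers (Kit) did. In WT the summed NK markers lay at 6900 to 7849 at rest, 5791 to 6832 with PGE2, 6692 to 7756 with stimulation and 5678 to 6519 with both. The Kit promoter lay at 603 to 728, 697 to 831, 402 to 541 and 494 to 694 in the same groups. In the KO, in the same order, the NK markers lay at 5963 to 6413, 5884 to 7419, 6392 to 7529 and 6313 to 7036. The KO values of Kit were 521 to 690, 509 to 664, 462 to 538 and 455 to 564. For the NK markers, resting untreated KO libraries thus lay below all resting untreated WT ones. The part of these shifts in the results below was not tested.

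Fas ligand and TRAIL are membrane proteins that trigger apoptosis in a target cell by clustering death receptors, which recruit the adaptor FADD and caspase-8. TNF is made as a membrane protein, shed by the protease ADAM17, and signals through TNF receptors mainly to NF-κB. Lymphotoxin alpha is secreted and binds the same receptors, or stays on the surface in a complex with lymphotoxin beta and then engages the lymphotoxin beta receptor. Tnf, Lta and Ltb lie side by side in the class III region of the major histocompatibility complex. NK1.1 signals through an ITAM adaptor to calcium, NFAT and NF-κB, whereas the PGE2 receptors EP2 and EP4 couple to Gs and raise cAMP.

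The sequences before the starts of Tnf, Fasl, Ltb and Tnfsf10 are shown because these starts lie in member promoter peaks. Stimulation in WT was called at those of Tnf and Fasl and not at those of Ltb and Tnfsf10, and the promoters were not tested against each other. The Lta start lies in a peak that the table assigns to another gene, and its sequence is not shown. Each run is the 250 bases before the RefSeq start (GRCm38.p6), 5′ to 3′ on the strand of the gene. Capitals mark matches to the motifs searched.

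Tnf, chr17:35202008-35202257, minus strand: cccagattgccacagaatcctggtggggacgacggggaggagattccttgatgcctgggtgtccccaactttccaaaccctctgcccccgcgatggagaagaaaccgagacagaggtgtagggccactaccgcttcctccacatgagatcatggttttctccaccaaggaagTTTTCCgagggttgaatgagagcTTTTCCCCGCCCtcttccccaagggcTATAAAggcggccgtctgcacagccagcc

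Fasl, chr1:161788496-161788745, minus strand: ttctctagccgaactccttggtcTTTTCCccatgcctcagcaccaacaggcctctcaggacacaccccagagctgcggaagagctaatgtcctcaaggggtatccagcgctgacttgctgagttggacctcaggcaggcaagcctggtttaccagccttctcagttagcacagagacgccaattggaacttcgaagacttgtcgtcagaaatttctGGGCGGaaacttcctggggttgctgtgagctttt

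Ltb, chr17:35194257-35194506, plus strand: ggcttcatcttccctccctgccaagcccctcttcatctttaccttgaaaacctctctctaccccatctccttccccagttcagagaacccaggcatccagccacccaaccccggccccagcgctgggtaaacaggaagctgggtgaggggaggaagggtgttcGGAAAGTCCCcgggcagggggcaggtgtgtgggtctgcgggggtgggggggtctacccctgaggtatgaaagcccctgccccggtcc

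Tnfsf10, chr3:27316827-27317076, plus strand: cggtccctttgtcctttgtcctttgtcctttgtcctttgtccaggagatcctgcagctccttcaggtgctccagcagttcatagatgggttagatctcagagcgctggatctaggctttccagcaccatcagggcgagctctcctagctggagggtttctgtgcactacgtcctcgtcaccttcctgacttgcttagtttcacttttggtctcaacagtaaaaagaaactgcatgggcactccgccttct

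The search used 11 motifs on both strands: the NF-κB consensus by name, the NFAT core GGAAAA, AP-1 TGANTCA, CRE TGACGTCA and its shorter form TGACGT, the ISRE core GAAANNGAA, RUNX TGTGGT, T-box TCACAC, GC box GGGCGG, EGR GCGTGGGCG and, for the TATA box, the letters TATAAA. The Tnf window held the NFAT core at 78 to 73 and at 55 to 50 bases before the start, a GC box at 49 to 44 that directly follows the latter, and a TATA box at 29 to 24. Fasl held an NFAT core at 227 to 222 and a GC box at 34 to 29, Ltb an NF-κB match at 87 to 78, and Tnfsf10 none of the 11. Among 32817 mouse promoters of the same 250 bases, 20.4% held the NFAT core, 3.9% the NF-κB consensus, 32.7% the GC box and 12.4% the TATA box. The other motifs were held by 6.8% (AP-1), 1.5% (CRE), 6.5% (its shorter form), 7.1% (ISRE core), 14% (RUNX), 12.3% (T-box) and 0.5% (EGR). A match is a description of the letters and not a bound site.

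**Figure D1:**
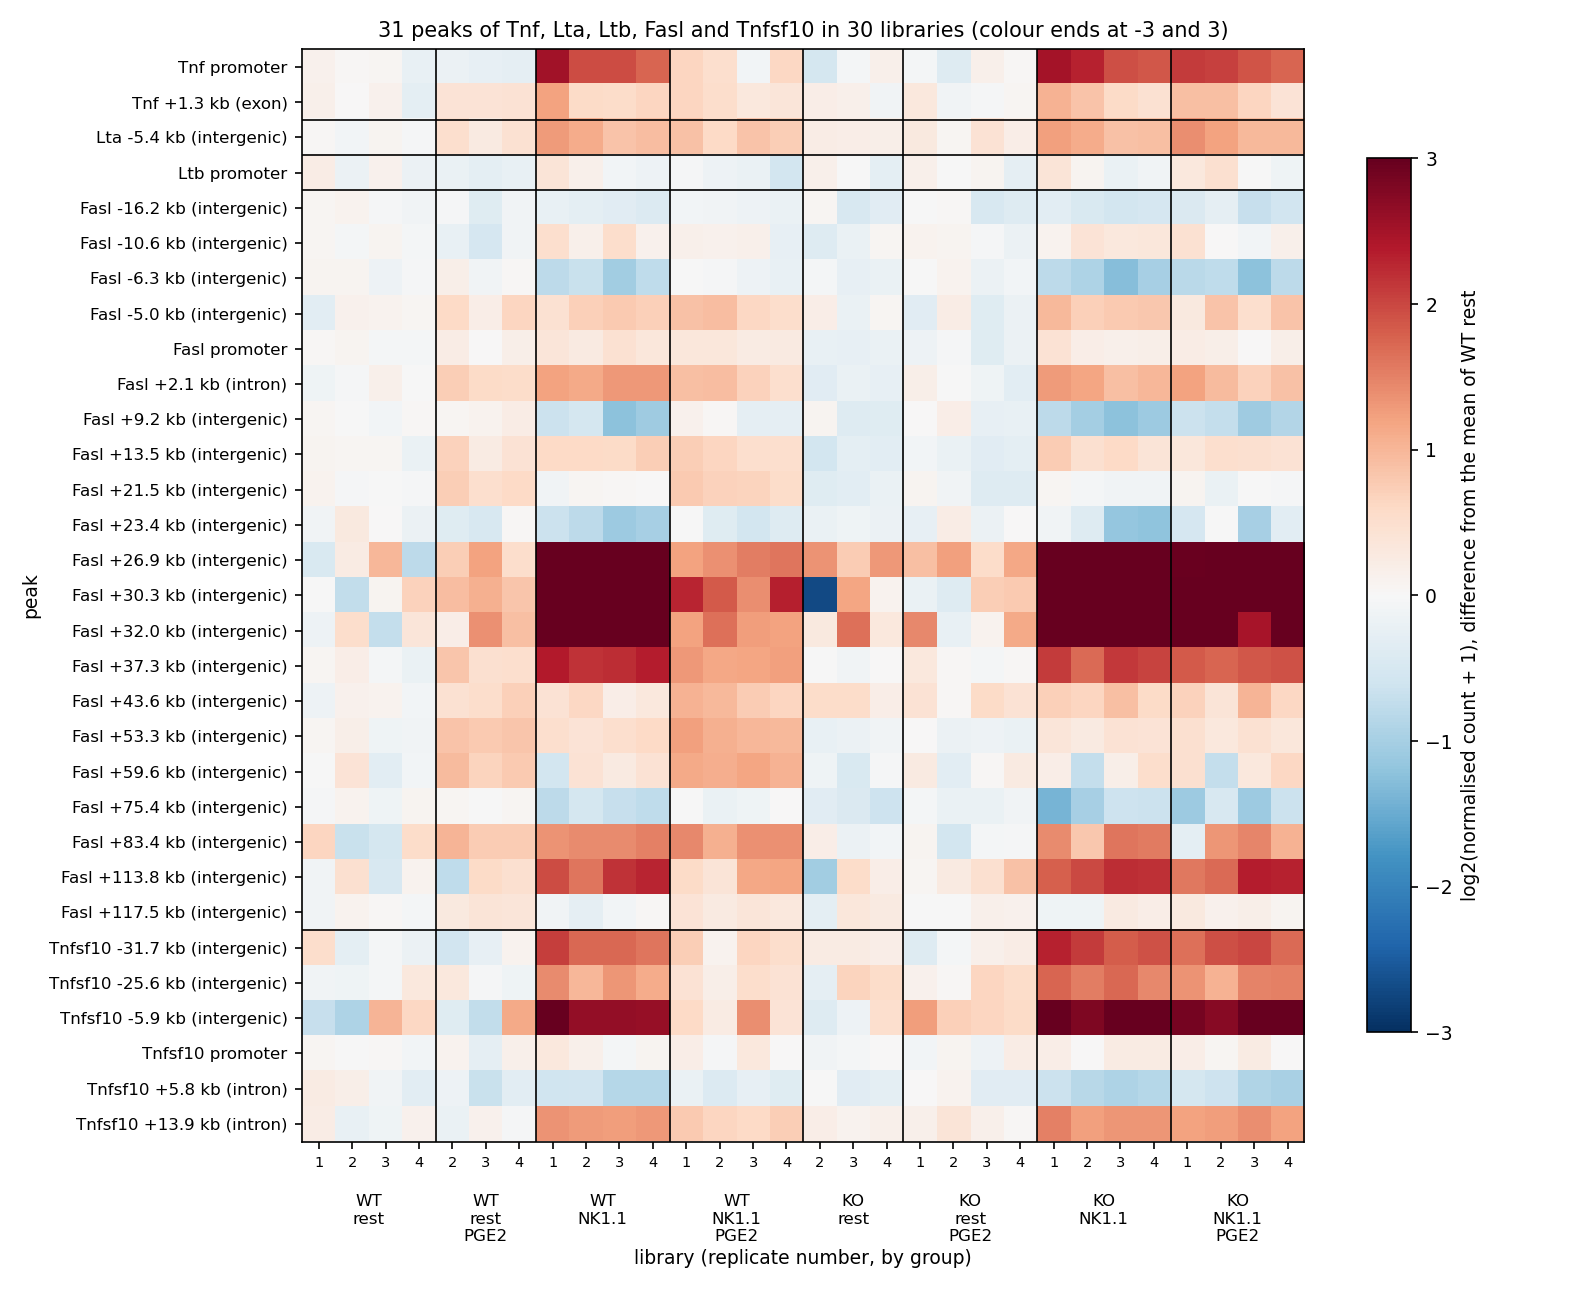
Accessibility of the 31 peaks (rows) in the 30 libraries (columns, by group), as log2(normalised count + 1) minus the mean of resting untreated WT. Fasl at +26.9 to +37.3 kb and Tnfsf10 at -5.9 kb are red with NK1.1 in WT and paler with NK1.1 and PGE2, while in the KO both stimulated groups are red.

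Stimulation through NK1.1 opened the Tnf promoter, the Lta peak, a cluster of distal Fasl peaks and 4 Tnfsf10 peaks, and closed 5 Fasl peaks and 1 Tnfsf10 peak. In untreated WT cells 20 of the 31 peaks rose and 6 fell, against 28.9% higher and 27.4% lower of all 38525 peaks tested. The median log2 change was 0.63 over the 31 peaks and -0.02 over all peaks. Changes are on the log2(normalised count + 1) scale, which understates those of low peaks, and a peak was called at an adjusted p under 0.05 (limma, Benjamini-Hochberg over all peaks). In the KO, 20 rose and 5 fell, with 28.1% higher and 26.4% lower over all peaks.

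PGE2 given before and during stimulation moved 22 of the 31 peaks in WT, 12 lower and 10 higher, against 20.4% and 20.2% of all peaks. In the stimulated KO 0 were called by limma, edgeR and DESeq2, and 0, 0 and 1 had an unadjusted p under 0.05. Over all peaks 0.0026% were called there. By limma the KO log2 changes of the 31 peaks ran from -0.46 to 0.26. Most of the 22 peaks had a KO change of the same sign as in WT, and this shared direction was not tested. In resting WT, PGE2 raised 12 peaks and lowered 1, against 10.9% and 4.03% of all peaks, and these 13 calls were 7 without replicate 4 and 8 without replicate 3 of the PGE2 group. In the resting KO 0 were called by each of the 3 tools, 1 had an unadjusted p under 0.05 by each, and 0% of all peaks were called. Because 21 of the 31 peaks belong to Fasl, these counts mostly describe one locus.

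The direction under stimulation in the KO, which shares no library with the WT comparison of PGE2, was set beside the PGE2 effect in stimulated WT. Of the 20 peaks that rose in the KO, 12 were lowered by PGE2 in WT, 2 were raised and 6 were not called. Over all 10816 peaks that rose in the KO, 56.8% were lowered and 6.9% raised. All 5 peaks that fell in the KO were raised by PGE2 in WT, against 46.5% of the 10185 such peaks over the whole table.

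**Figure D2:**
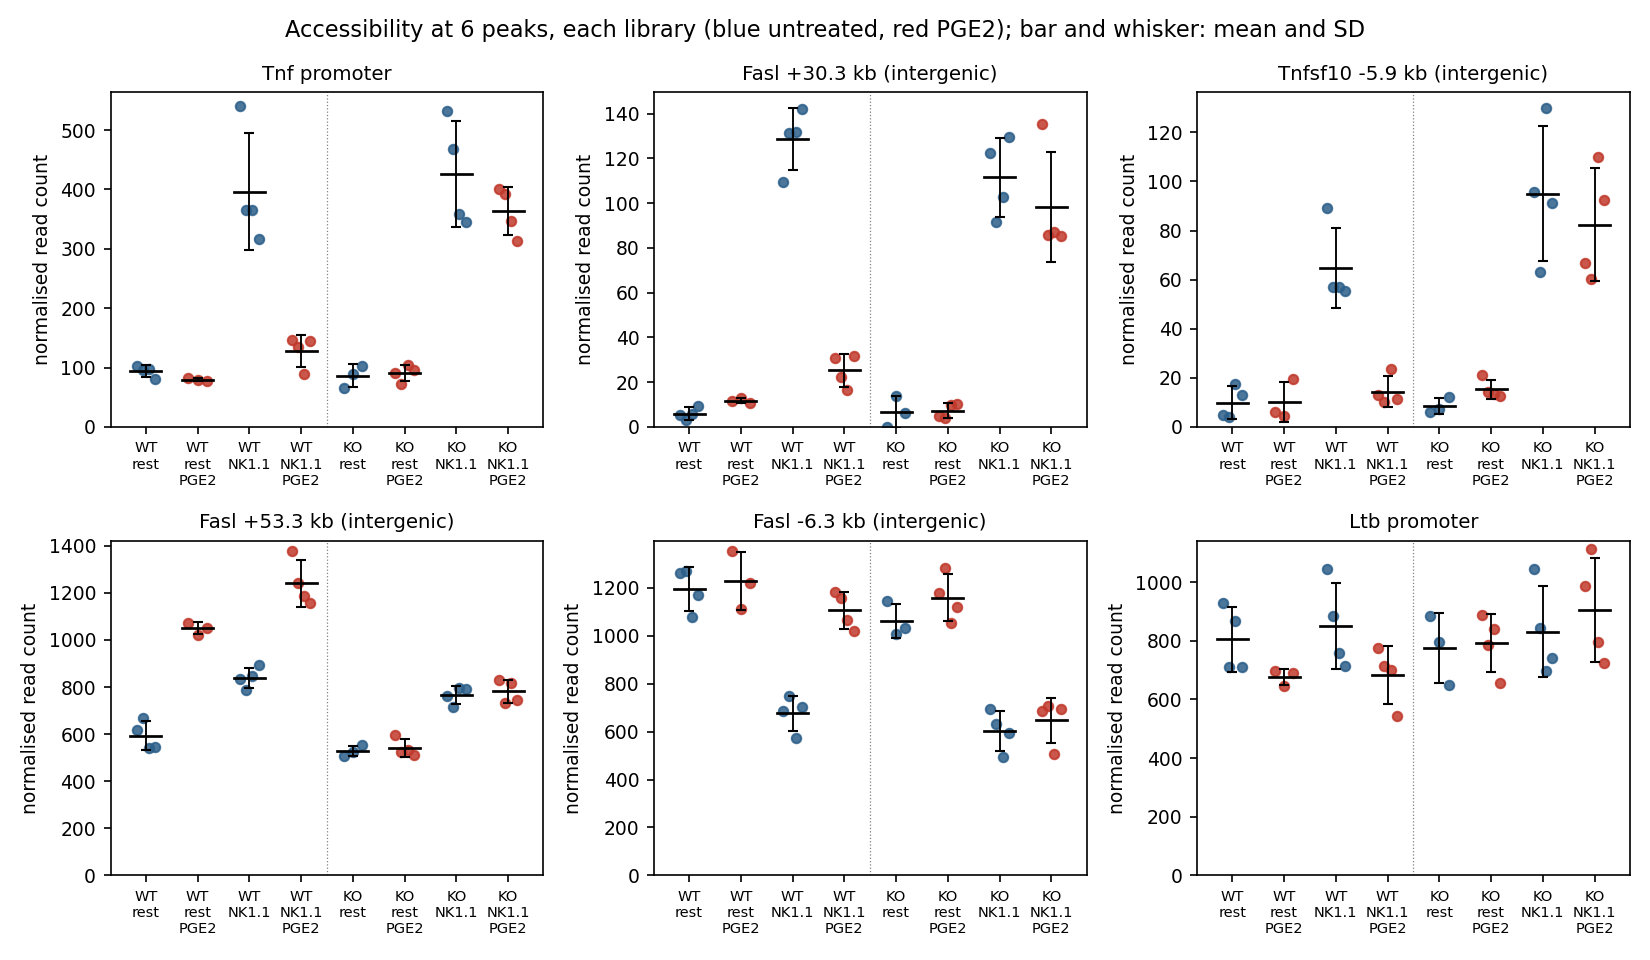
Normalised read count at 6 peaks in each library (points, untreated blue and PGE2 red), with the mean and SD of each group of 3 or 4 libraries. At the Tnf promoter the 4 stimulated WT libraries with PGE2 (88.7 to 146) lie below all 4 without (316 to 540), while those of the KO overlap.

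At the Tnf promoter, stimulation raised accessibility in both genotypes, and PGE2 lowered it in stimulated WT cells but not detectably in the KO. The peak (mm10 chr17:35201325-35202343) holds the Tnf start and the sequence shown above. Resting WT libraries measured 102, 95.2, 98.2 and 80 untreated and 82.5, 78.6 and 78 with PGE2. Stimulated WT libraries measured 540.4, 365, 365 and 316 untreated and 146, 134, 88.7 and 144 with PGE2. Stimulated libraries with PGE2 lay below all stimulated untreated ones and overlapped the resting untreated range. The rise with stimulation was 2.04 ± 0.17 (SE; adjusted p = 3.06e-13) on the log2 scale, and PGE2 changed the stimulated level by -1.62 ± 0.17 (adjusted p = 5.22e-10). Under PGE2, stimulation still raised the peak by 0.65 ± 0.18 (adjusted p = 0.00852). In resting cells PGE2 made a difference of -0.23 ± 0.18, which was not called.

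In the KO the Tnf promoter measured 65, 89.5 and 103 at rest, 90, 71.5, 105 and 96.3 at rest with PGE2, 531, 468, 358 and 345 stimulated and 401, 393, 347 and 314 with both. The stimulated groups overlapped, whatever the treatment, and both lay above every resting library. Each stimulated library with PGE2 was lower than the same-numbered one without, though the labels do not state a pairing. In a fit with replicate number as a block, 0 of the 31 peaks were called for PGE2 in the stimulated KO. Stimulation raised the KO peak by 2.30 ± 0.18 (adjusted p = 1.42e-13), and the PGE2 difference under stimulation was -0.21 with a 95% interval of -0.55 to 0.13. The genotypes' difference in the stimulation effect, as WT minus KO, was -0.26 (95% interval -0.75 to 0.24) and was not called. The PGE2 effect in stimulated WT minus that in the stimulated KO was -1.41 ± 0.23 (adjusted p = 2.91e-05).

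The other Tnf peak covers the gene body at exon sequence (chr17:35200307-35201058). It rose with stimulation from 310.0 ± 40 (SD, n = 4) to 527 ± 122 (n = 4), a change of 0.75 ± 0.13 (adjusted p = 7.32e-06). Replicate 1 of the stimulated WT group stood at 708, with the other 3 at 455 to 481. With PGE2 the stimulated libraries measured 480.2, 447, 384 and 395, which overlapped those without, and the difference of -0.28 ± 0.13 was not called (adjusted p = 0.0838). In a limma fit with replicate number as a block that difference was called (adjusted p = 0.0121). At rest the peak was higher with PGE2, at 409, 410.4 and 417 against 341, 312, 335 and 253, by 0.42 ± 0.14 (adjusted p = 0.0391). That call was lost without any 1 of replicates 2, 3 and 4 of the PGE2 or 2 and 4 of the untreated group, with adjusted p from 0.0656 to 0.156, and with quantile normalisation (0.0689). The PGE2 effect with stimulation minus that at rest was -0.70 (adjusted p = 0.00629), the same sign as at the promoter (-1.39, adjusted p = 5.07e-05).

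The intergenic peak assigned to Lta (chr17:35209937-35211490) begins 4586 bases upstream of the Lta start. It opened with stimulation in both genotypes and was only slightly lower with PGE2. At rest WT libraries measured 276, 255, 286 and 263 untreated and 385, 324 and 370.4 with PGE2. With stimulation WT libraries measured 654, 583, 491 and 516 untreated and 500.1, 412, 485 and 451 with PGE2. The resting groups did not overlap, and the stimulated groups did. PGE2 raised the resting level by 0.41 ± 0.11 (adjusted p = 0.00662), stimulation raised it by 1.05 ± 0.10 (adjusted p = 2.82e-11), and PGE2 lowered the stimulated level by 0.27 on the log2 scale (adjusted p = 0.0276). The last call was lost without any 1 of replicates 1 and 2 of the untreated or 2 and 4 of the PGE2 group, with adjusted p from 0.0572 to 0.144. The PGE2 effect with stimulation minus that at rest was -0.69 (adjusted p = 0.000679).

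In the KO the Lta peak measured 317, 308 and 306 at rest, 329, 280.0, 363 and 311 at rest with PGE2, 636, 588, 497 and 503 stimulated and 707, 626, 533 and 528 with both. It rose with stimulation by 0.83 ± 0.11 (adjusted p = 3.86e-08), and the treated and untreated groups overlapped in both states. The genotype difference of the PGE2 effect under stimulation was -0.38 and was not called (adjusted p = 0.0568). In a limma fit with replicate number as a block that difference was called (adjusted p = 0.0235).

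The start of Lta itself lies in a promoter peak (chr17:35204420-35205520) that the table assigns to Mir6974, a microRNA gene inside Lta, and so it is not among the 31. All 1101 of its bases are in Lta. It measured 185 ± 21.9 (SD, n = 4) in resting WT, 289 ± 28.4 (n = 4) with stimulation and 168 ± 11 (n = 4) with stimulation and PGE2. It rose with stimulation by 0.65 ± 0.12 (adjusted p = 1.41e-05), and PGE2 lowered the stimulated level by 0.78 on the log2 scale (adjusted p = 1.57e-06). This promoter was chosen after its values were seen.

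Ltb, the partner subunit of lymphotoxin alpha, had 1 peak (chr17:35194034-35196336), which holds its start and a microRNA gene, Mir6973a. It was open in all 8 groups, and no difference was called in any of the 12 comparisons in the fit without a replicate block. The resting WT values were 930.4, 710.4, 867 and 712 untreated and 697, 647 and 689.5 with PGE2. The stimulated WT values were 1044, 885, 757 and 716 untreated and 776, 715, 700.1 and 545 with PGE2. The stimulated ranges overlapped, and resting libraries with PGE2 lay just below the lowest untreated one. The PGE2 differences were -0.24 at rest (95% interval -0.53 to 0.05) and -0.31 with stimulation (-0.58 to -0.04, adjusted p = 0.0611), and the stimulation difference was 0.07 (-0.20 to 0.34). In a limma fit with the replicate block the PGE2 difference with stimulation was called (adjusted p = 0.00373), as was its difference between genotypes (0.00899). KO libraries measured 885, 796 and 648 at rest, 889, 787, 839 and 658 at rest with PGE2, 1045, 844, 697 and 741 stimulated and 988, 1114, 795 and 725 with both, all overlapping.

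Fasl had 21 peaks over 134811 bases, which puts it at the 99.6th percentile of genes by number of peaks. Of these, 1 holds the start, 1 lies in an intron and 19 are intergenic. They lie from -16.2 kb (upstream) to +117.5 kb (downstream) of the start, and peaks are named here by that distance. Peaks at +21.5 and +23.4 kb overlap the lncRNA gene Gm31869. The assignment of the distal peaks to Fasl is the table's and was not tested. Stimulation in WT raised 13 of the 21 peaks and lowered 5, against 28.9% higher and 27.4% lower of all peaks. PGE2 in stimulated WT lowered 6 and raised 9, against 20.4% and 20.2% of all peaks. At rest PGE2 raised 10 and lowered none, against 10.9% and 4.03% of all peaks.

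**Figure D3:**
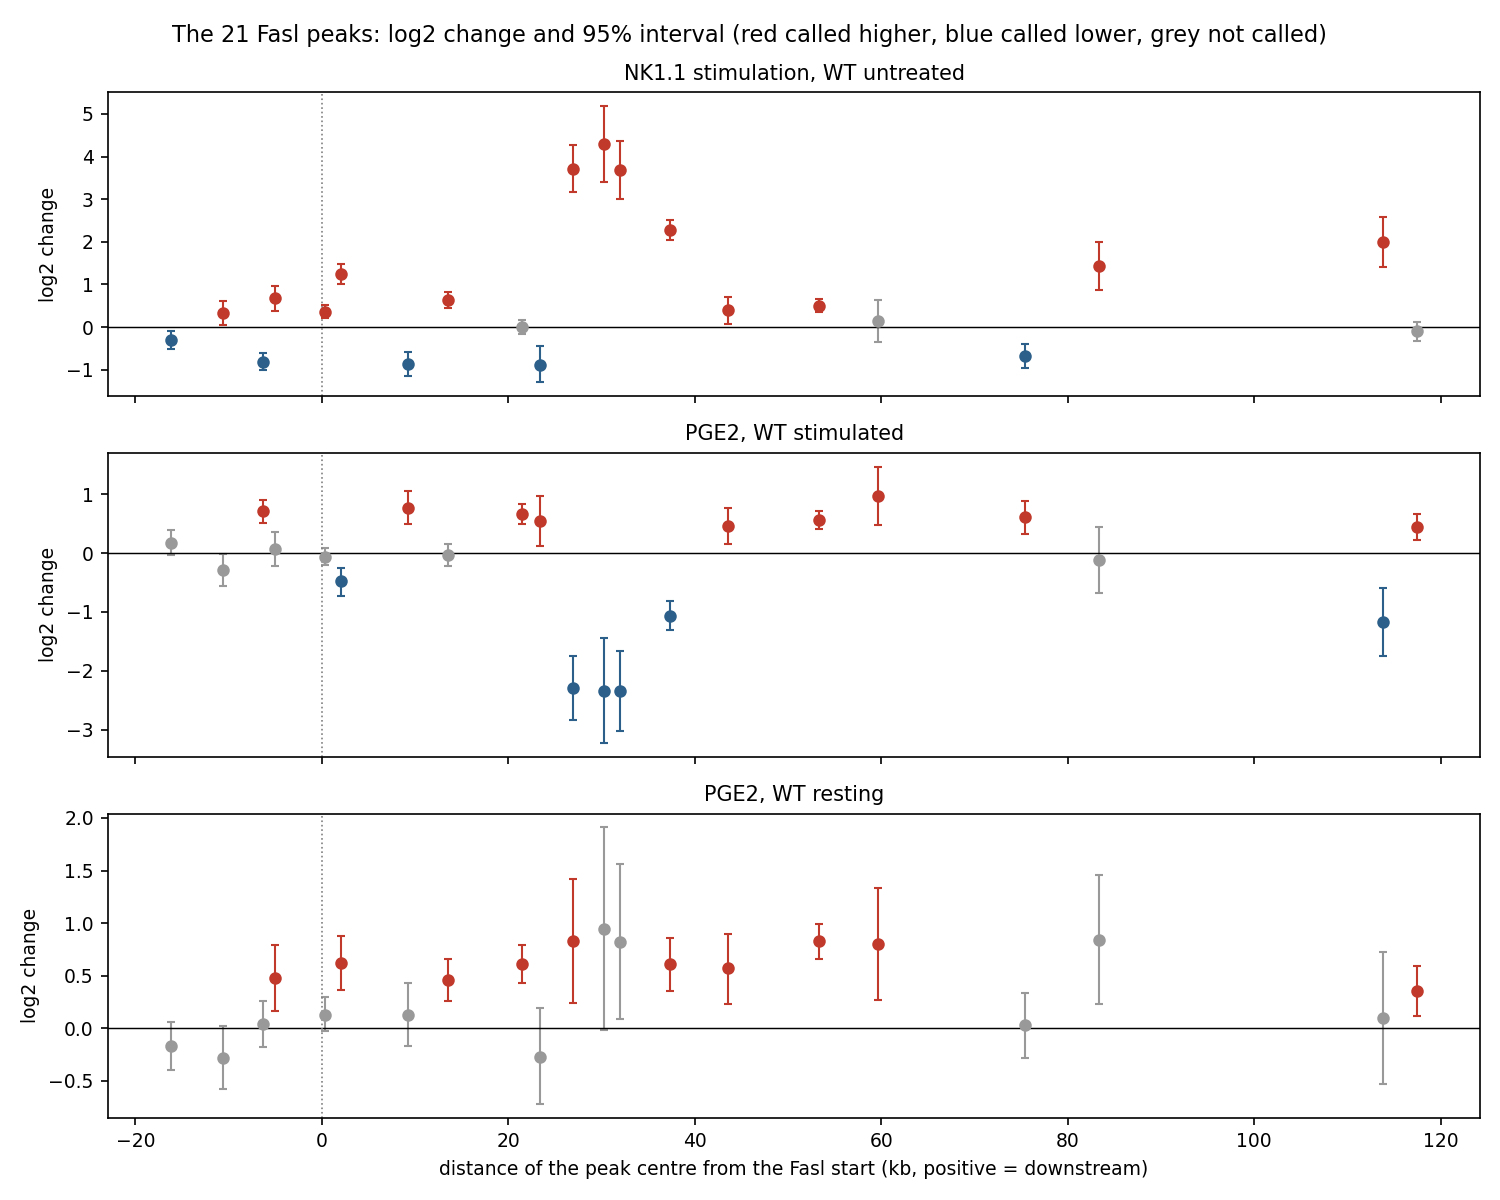
log2 change of the 21 Fasl peaks (points, with 95% intervals) by distance from the Fasl start in kb, for stimulation, PGE2 in stimulated cells and PGE2 in resting cells, all in WT. The 3 peaks from +26.9 to +32.0 kb have the highest values in the upper panel and the lowest in the middle one, and those from +43.6 to +59.6 kb are above 0 in both PGE2 panels.

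The Fasl promoter peak (chr1:161787418-161788904) opened modestly with stimulation and did not move detectably with PGE2. In resting WT the values were 692, 711, 650.0 and 652 untreated and 788, 677 and 763 with PGE2. After stimulation the WT values were 871, 820.0, 921 and 856 untreated and 861, 859, 798 and 810.4 with PGE2. Stimulated untreated libraries lay above all resting untreated ones, and the PGE2 groups overlapped their controls. Stimulation raised the peak by 0.36 ± 0.07 (adjusted p = 8.74e-05) in WT and by 0.46 ± 0.08 (adjusted p = 6.88e-06) in the KO. The PGE2 difference under stimulation was -0.06 in WT, with a 95% interval of -0.21 to 0.09. KO libraries measured 577, 571 and 590.1 at rest, 606, 662, 528 and 602 at rest with PGE2, 911, 772, 757 and 761 stimulated and 791, 762, 683 and 763 with both. The intron peak at +2.1 kb (chr1:161785899-161786863) lay at 127 to 154 in resting WT and rose with stimulation, to the range of 305 to 344 (1.24 ± 0.12, adjusted p = 1.58e-11). It was lower with PGE2, at 196 to 264 (-0.48 ± 0.12, adjusted p = 0.000973), but higher with PGE2 at rest, at 201 to 233 (0.62 ± 0.13, adjusted p = 0.00041). The genotype difference of the PGE2 effect was not called at this intron peak with stimulation (-0.32, adjusted p = 0.183) or at rest (0.43, adjusted p = 0.173).

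A cluster of 4 intergenic Fasl peaks from +26.9 to +37.3 kb was nearly closed or low at rest, opened with stimulation and stayed far lower when PGE2 was present in WT. The peak at +30.3 kb (chr1:161757880-161758600) measured 5.50, 2.92, 5.89 and 9.55 in resting WT and 11.5, 12.8 and 10.6 with PGE2. Stimulated WT libraries measured 109, 131, 132 and 142 untreated and 30.8, 22.3, 16.3 and 31.8 with PGE2. The stimulated libraries with PGE2 lay between the resting and the stimulated untreated ones, with no overlap. Stimulation raised this peak by 4.30 ± 0.44 (adjusted p = 1.2e-10), and PGE2 changed the stimulated level by -2.34 ± 0.44 (adjusted p = 4.4e-05).

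In the KO the +30.3 kb peak measured 0, 13.9 and 6.08 at rest, 4.68, 4.03, 9.98 and 10.2 at rest with PGE2, 122, 91.5, 103 and 129.5 stimulated and 135, 85.5, 87.1 and 85.2 with both. The library at 0 had 0 reads, which allows up to 3 reads or 4.53 normalised counts, and such limits cover counting error only. Both stimulated KO groups lay above every resting library and overlapped each other. The WT effect of PGE2 minus the KO effect was -2.15 ± 0.62 (adjusted p = 0.0118).

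The other 3 peaks of the cluster rose with stimulation and were lower with PGE2. The +26.9 kb peak (chr1:161761372-161761898) lay at 4.78 to 18.6 at rest, 119.7 to 139.7 with stimulation and 21.9 to 29 with stimulation and PGE2 in WT (3.71 and -2.29, adjusted p = 1.42e-14 and 1e-08). The +32.0 kb peak (chr1:161756243-161756845) lay at 3.93 to 10.7, 98.3 to 112 and 17.8 to 24.5 in the same groups (3.68 and -2.35, adjusted p = 6.98e-12 and 4.96e-07). The +37.3 kb peak (chr1:161750591-161751888), the most accessible of the cluster, lay at 60.9 to 79.7, 314 to 366 and 157 to 172 in these groups (2.28 and -1.06, adjusted p = 1.14e-18 and 3.12e-09). In each of the 3 the stimulated libraries without PGE2 lay above all those with it. In the KO the ranges with stimulation, without and with PGE2, were 86.5 to 144 and 76.8 to 118 at +26.9 kb, 69.4 to 108 and 44 to 76.9 at +32.0 kb, and 226 to 306 and 236 to 266 at +37.3 kb. Those KO ranges overlapped at each of the 3 peaks, and the difference between genotypes was called at each (-1.93, -2.01 and -0.92).

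At rest PGE2 also raised the +37.3 kb peak, which then lay at 96.9 to 125 (0.61 ± 0.13, adjusted p = 0.000596). The +26.9 kb peak was called higher with PGE2 at rest as well (0.83 ± 0.29, adjusted p = 0.0476), with overlapping libraries, and the call was lost under 11 of its 16 alternatives, edgeR and DESeq2 among them. A separate peak at +113.8 kb (chr1:161674365-161675080) had the same directions, with 20.6 to 40.8 at rest, 89.5 to 144 with stimulation and 37.9 to 67.3 with both in WT (2.0 and -1.17, adjusted p = 2.1e-07 and 0.00119).

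Other Fasl peaks were raised by PGE2 whether or not the cells were stimulated. The +53.3 kb peak (chr1:161734238-161736059) measured 619, 667, 542 and 547 in resting WT and 1074, 1023 and 1052 with PGE2. With stimulation WT libraries measured 834, 786, 845 and 892 untreated and 1379, 1242, 1186 and 1155 with PGE2. No library with PGE2 overlapped its control group, and stimulation and PGE2 together gave the highest level. PGE2 raised the peak by 0.83 ± 0.08 at rest (adjusted p = 6.01e-10) and by 0.56 ± 0.07 with stimulation (adjusted p = 1.16e-07), and stimulation alone raised it by 0.50 ± 0.07 (adjusted p = 3.47e-07). KO libraries measured 509, 522 and 552 at rest, 595, 525, 531 and 511 at rest with PGE2, 761, 714, 797 and 793 stimulated and 831, 734, 818 and 745 with both. In the KO stimulation raised the peak by 0.54 ± 0.08 (adjusted p = 5.14e-07), and the PGE2 groups overlapped their controls.

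The +21.5 kb peak (chr1:161765897-161768090) responded to PGE2 and not detectably to stimulation in WT. Resting WT libraries measured 1065, 969.9, 986 and 966 untreated and 1659, 1418 and 1498 with PGE2. The stimulated WT values were 930.0, 1037, 1021 and 1002 untreated and 1709.9, 1613, 1579.5 and 1453 with PGE2. Every library with PGE2 lay above every untreated one. The PGE2 change was 0.61 ± 0.09 at rest and 0.67 ± 0.08 with stimulation (adjusted p = 2.79e-06 and 3.23e-08). KO ranges were 769 to 864 at rest, 760.0 to 1052 at rest with PGE2, 919.5 to 1033 stimulated and 873 to 1056 with both. In the KO stimulation raised the peak, with no overlap of libraries (0.24 ± 0.09, adjusted p = 0.0237), and the difference from WT in the stimulation effect was not called (-0.24, 95% interval -0.49 to 0.01).

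A further 3 peaks shared this direction at lower levels. The +59.6 kb peak (chr1:161728568-161729318) lay at 50.1 to 83.6 at rest, 101 to 122 with PGE2, 42.5 to 85.4 with stimulation and 131 to 144 with both (0.80 at rest and 0.97 with stimulation, adjusted p = 0.0322 and 0.00138). The +43.6 kb peak (chr1:161744411-161745330) lay at 58.1 to 70, 88.7 to 105, 73.7 to 98.9 and 101 to 134 in the same order (0.57 and 0.46, adjusted p = 0.0148 and 0.0146). The +117.5 kb peak (chr1:161670482-161671511) lay at 255 to 297, 336 to 362, 229 to 281 and 331 to 368 (0.35 and 0.44, adjusted p = 0.0308 and 0.000909). At each of these 3 peaks the libraries with PGE2 lay above their controls, and no genotype difference of the PGE2 effect was called in either state. The call at rest was lost at +59.6 kb without any 1 of replicates 2, 3 and 4 of the PGE2 or 1, 3 and 4 of the untreated group (adjusted p from 0.0597 to 0.117), and with quantile normalisation (0.0893). It was lost at +43.6 kb without replicate 4 of the PGE2 group (0.0855), and at +117.5 kb without replicate 3 or 4 of the PGE2 or 1 or 4 of the untreated group (0.0678 to 0.111), with scaling to reads in peaks (0.0618) and with quantile normalisation (0.064). With stimulation the PGE2 call at +43.6 kb was lost without replicate 1 of the PGE2 (0.0594) or 3 of the untreated group (0.0586).

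Stimulation closed 5 Fasl peaks, and 4 of them were higher when PGE2 was present. The most accessible of these 4, at -6.3 kb (chr1:161794293-161795270), measured 1264, 1270.2, 1078 and 1170.4 in resting WT and 1355, 1113 and 1219 with PGE2. After stimulation the WT values were 687, 747, 575 and 701 untreated and 1184, 1156, 1066 and 1019.8 with PGE2. The stimulated untreated libraries lay below all the others. Stimulation changed the peak by -0.82 ± 0.10 (adjusted p = 6.1e-09) and PGE2 changed the stimulated level by 0.71 ± 0.10 (adjusted p = 3.54e-07). KO libraries measured 1144, 1008 and 1033 at rest, 1177, 1284, 1055 and 1119.6 at rest with PGE2, 693, 632, 495 and 593 stimulated and 684, 707, 506 and 693 with both. The KO peak fell with stimulation by 0.82 on the log2 scale (adjusted p = 3.79e-08), and its stimulated groups overlapped.

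The +9.2 kb peak (chr1:161778866-161779666) fell in WT with stimulation, with 275 to 302 at rest, 124 to 201 stimulated and 242 to 321 with PGE2 as well (-0.86 and 0.77, adjusted p = 1.14e-06 and 1.61e-05). The +75.4 kb peak (chr1:161712517-161713683) fell likewise, with 165 to 193, 105 to 126 and 158 to 181 in the same order (-0.69 and 0.61, adjusted p = 8.69e-05 and 0.00072). The +23.4 kb peak (chr1:161764939-161765337) fell likewise, with 84.8 to 118, 45.2 to 61.7 and 65.2 to 95.4 in the same order (-0.88 and 0.55, adjusted p = 0.000485 and 0.0343). In all 3 the stimulated WT libraries with PGE2 lay above those without. The genotype difference of the PGE2 effect under stimulation was called at +9.2 kb (0.57, adjusted p = 0.0328). At +75.4 kb (0.51, adjusted p = 0.0699) and +23.4 kb (0.29, adjusted p = 0.564) it was not called. The PGE2 call at +23.4 kb was lost without replicate 1 or 2 of the PGE2 or 3 or 4 of the untreated group (adjusted p from 0.0538 to 0.127). The -16.2 kb peak (chr1:161804119-161805292) fell less, with 1302 to 1496 at rest and 1056 to 1198 stimulated (-0.31, adjusted p = 0.00955), and its PGE2 difference was not called (0.18, adjusted p = 0.164). In a limma fit with replicate number as a block that PGE2 difference was called (adjusted p = 0.0374).

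The remaining 4 Fasl peaks opened with stimulation and were not called for PGE2 in stimulated cells. The +13.5 kb peak (chr1:161774429-161775638) rose with stimulation, with 363 to 440.5 at rest and 621 to 696 stimulated (0.63, adjusted p = 2.64e-07), and lay at 491 to 669 with PGE2 at rest (0.46, adjusted p = 0.000859). The -5.0 kb peak (chr1:161793185-161793826) had 102 to 139.9 at rest and 174 to 220.4 stimulated (0.67, adjusted p = 0.000149), and at rest with PGE2 it lay at 145 to 199 (0.48, adjusted p = 0.0322). That resting call was lost without replicate 2 or 4 of the PGE2 or 1 of the untreated group (adjusted p from 0.131 to 0.166), and with quantile normalisation (0.116). The +83.4 kb peak (chr1:161704659-161705595) had 18.5 to 47.1 at rest and 77.9 to 87.6 stimulated (1.43, adjusted p = 4.07e-05). The stimulated groups with and without PGE2 overlapped at these 3 peaks. The -10.6 kb peak (chr1:161798791-161799419) lay at 119 to 133 at rest and 138 to 181 with stimulation (0.33, adjusted p = 0.0386), and that call was lost without replicate 1 or 3 of the stimulated or 2 or 4 of the resting group, with adjusted p from 0.0818 to 0.133, with scaling to reads in peaks (0.0609) and with quantile normalisation (0.243).

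Tnfsf10 encodes TRAIL, whose death receptor in the mouse is encoded by Tnfrsf10b. Its promoter peak (chr3:27316608-27318019) was open in all groups with no difference called, while 5 peaks away from the start moved with stimulation. At the promoter, resting WT libraries measured 412, 389.7, 405 and 373 untreated and 426, 329.9 and 441 with PGE2. Stimulated WT libraries measured 489, 439, 379.7 and 417 untreated and 450.4, 384, 489 and 398 with PGE2. All these ranges overlapped and no difference was called in any of the 12 comparisons, with a stimulation difference of 0.12 (95% interval -0.07 to 0.32) in WT. KO libraries measured 367, 379 and 399 at rest, 375, 416, 357 and 458 at rest with PGE2, 452, 396, 471 and 465 stimulated and 451, 412, 469.9 and 399 with both.

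The Tnfsf10 peak at -5.9 kb (chr3:27310782-27311631) had the largest responses of the locus. At rest WT libraries measured 4.71, 3.89, 17.7 and 13.1 untreated and 6.26, 4.57 and 19.5 with PGE2. With stimulation WT libraries measured 89.1, 56.9, 57.1 and 55.5 untreated and 12.9, 10, 23.4 and 11.2 with PGE2. The stimulated untreated libraries stood above all others, and those with PGE2 overlapped the resting ones. Stimulation raised the peak by 2.80 ± 0.38 (adjusted p = 5.92e-08) and PGE2 changed the stimulated level by -2.14 ± 0.38 (adjusted p = 1.77e-05). KO libraries measured 6.04, 7.29 and 12.2 at rest, 21, 14.1, 13.6 and 12.8 at rest with PGE2, 95.7, 63.2, 130.1 and 91.1 stimulated and 66.9, 60.2, 110.0 and 92.6 with both. In the KO stimulation raised it by 3.35 ± 0.41 (adjusted p = 8.23e-09), the stimulated groups overlapped, and the genotype difference of the PGE2 effect was -1.94 (adjusted p = 0.008).

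The Tnfsf10 peaks at -31.7 and -25.6 kb and the intron peak at +13.9 kb shared this direction in WT. The genotype difference of the PGE2 effect under stimulation was called at -31.7 kb (-1.07, adjusted p = 0.00275) and +13.9 kb (-0.53, adjusted p = 0.00439). At -25.6 kb it was not called (-0.56, adjusted p = 0.105), with a PGE2 difference of -0.27 in the stimulated KO. At -31.7 kb (chr3:27284822-27285886) the WT ranges were 36 to 64.4 at rest, 137 to 189 stimulated and 48 to 74.6 with both (1.78 and -1.28, adjusted p = 1.5e-10 and 5.84e-07). At -25.6 kb (chr3:27290923-27291941) they were 63.2 to 86, 139.6 to 186 and 78.1 to 99.9 (1.22 and -0.83, adjusted p = 1.37e-07 and 0.000167). At +13.9 kb (chr3:27330579-27331415) they were 156 to 213, 438 to 469 and 278 to 314 (1.3 and -0.61, adjusted p = 2.13e-14 and 2.43e-06). At each of the 3 the stimulated libraries with PGE2 lay below all those without. The other intron peak, at +5.8 kb (chr3:27322333-27323383), went the opposite way, with 683 to 996 at rest, 465 to 565 stimulated and 633 to 737 with both (-0.73 and 0.42, adjusted p = 3.17e-06 and 0.00527). It was the 1 member lowered by PGE2 at rest (-0.38 ± 0.13, adjusted p = 0.0436), with overlapping libraries, and that call was lost without replicate 3 or 4 of the PGE2 or 1 or 2 of the untreated group (adjusted p from 0.0686 to 0.363).

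With PGE2 present, stimulation in WT raised 6 of the 31 peaks and lowered none, against 12.7% higher and 3.8% lower of all peaks. The 6 were the Tnf promoter, the Lta peak, Fasl at +37.3 and +53.3 kb and Tnfsf10 at -31.7 and +13.9 kb. The difference between the PGE2 effect with and without stimulation was called at 19 peaks, 14 negative and 5 positive, against 14.7% and 10.6% of all peaks. The most negative were Fasl at +30.3 kb (-3.28 ± 0.65), +32.0 kb (-3.17 ± 0.49) and +26.9 kb (-3.12 ± 0.40).

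**Figure D4:**
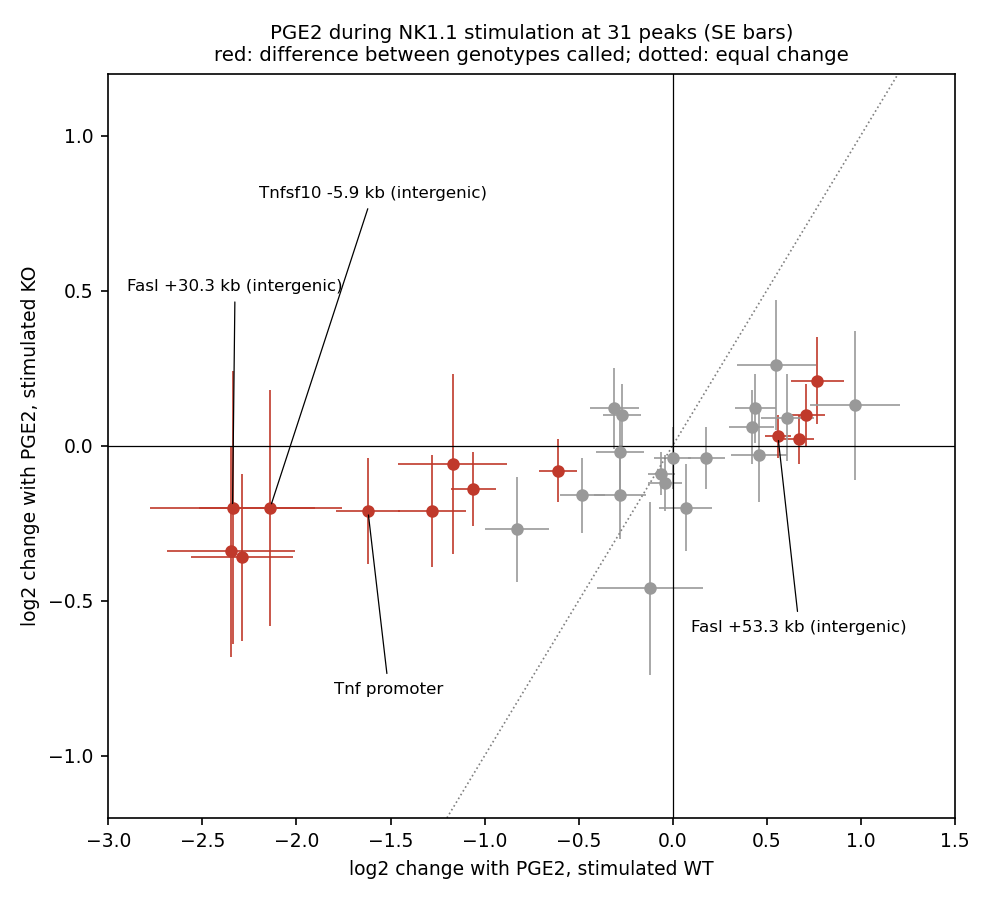
log2 change with PGE2 in stimulated cells at the 31 peaks, WT on the horizontal and KO on the vertical axis, with SE bars; red points differ between genotypes. WT values spread from -2.35 to 0.97 and KO values from -0.46 to 0.26.

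The genotypes differed in the PGE2 effect under stimulation at 13 peaks, 9 more negative and 4 more positive in WT, against 9.8% and 10.2% of all peaks. The 9 were the Tnf promoter, Fasl at +26.9, +30.3, +32.0, +37.3 and +113.8 kb and Tnfsf10 at -31.7, -5.9 and +13.9 kb. The 4 were Fasl at -6.3, +9.2, +21.5 and +53.3 kb. At rest the PGE2 effect differed at 2 peaks, both more positive in WT, against 4.94% higher and 1.24% lower of all peaks: Fasl at +53.3 kb (0.79 ± 0.11, adjusted p = 9.06e-06) and at +21.5 kb (0.52 ± 0.13, adjusted p = 0.00803). The response to stimulation alone differed at 0 peaks by limma, edgeR and DESeq2, with 3 at an unadjusted p under 0.05 by each, and at 0.00779% of all peaks. In untreated resting cells 2 of 31 peaks differed between KO and WT, against 1.73% of all peaks. Fasl at +26.9 kb was higher in the KO (1.14 ± 0.29, adjusted p = 0.0322), with overlapping libraries, and Fasl at +13.5 kb was lower (-0.39 ± 0.10, adjusted p = 0.0342). The count was 0 without replicate 4 of the KO or 1 of the WT group, and 1 without any other library.

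The receptors and signalling genes around these ligands had peaks that moved both ways, in shares that differed between lists. For death receptor and TNF signalling and for other TNF family ligands, more peaks rose than fell with stimulation in WT. In those lists more peaks fell than rose with PGE2 in stimulated WT, while all peaks split about evenly in both comparisons. Counts below are peaks higher and lower. PGE2 at rest in WT gave 5 and 2 of 28 for death and TNF receptors and 17 and 8 of 101 for death receptor and TNF signalling. It gave 5 and 4 of 32 for other TNF family ligands and 6 and 1 of 43 for TNF production and shedding. Of all peaks 10.9% were higher and 4.03% lower. For death and TNF receptors (28 peaks of 10 of 10 genes), stimulation in WT gave 13 and 9, against 28.9% and 27.4% of all peaks. There PGE2 in stimulated WT gave 4 and 10, against 20.2% and 20.4% of all peaks. The Fas promoter, of the Fas ligand receptor (chr19:34290019-34291347), rose from 182 ± 7.94 to 473 ± 64.9 (SD, n = 4 each) with stimulation and was 240.0 ± 18.1 with PGE2 (-0.97 ± 0.10, adjusted p = 7.45e-10). An intron peak of Tnfrsf22 (chr7:143643661-143644664) went the other way with PGE2 in stimulated WT, from 165 ± 33.4 to 319 ± 24.3 (0.97 ± 0.11, adjusted p = 2.39e-09). An intron peak of Tnfrsf1b, the gene of TNF receptor 2 (chr4:145240285-145241507), rose from 268 ± 19.5 (n = 4) to 833 ± 26.6 (n = 4) with stimulation and to 555 ± 36.2 (n = 3) with PGE2 at rest (1.05 ± 0.09, adjusted p = 4.94e-11).

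Death receptor and TNF signalling (101 peaks of 22 of 23 genes) gave 47 higher and 14 lower with stimulation, against 28.9% and 27.4% of all peaks. PGE2 in stimulated WT gave 9 and 35, against 20.2% and 20.4% of all peaks. The median log2 changes of this list were 0.19 and -0.10. Traf1, an NF-κB-induced adaptor, had an exon peak (chr2:34957704-34959018) that rose from 403 ± 44.6 to 1978 ± 141 (n = 4 each) with stimulation (2.30 ± 0.10, adjusted p = 4.98e-21). Cflar, which encodes the caspase-8 inhibitor c-FLIP, had an exon peak (chr1:58725621-58726423) at 387 ± 27 with stimulation and 75.5 ± 17.7 with PGE2 (-2.38 ± 0.23, adjusted p = 1.11e-10). A distal peak of Tnfaip3, encoding the NF-κB inhibitor A20 (chr10:18998997-19000724), rose with PGE2 at rest from 57.1 ± 18.7 (n = 4) to 229 ± 17.1 (n = 3). Another distal Tnfaip3 peak (chr10:19061564-19063350) rose with PGE2 in stimulated WT, from 1022 ± 49.7 to 2328 ± 199 (1.18 ± 0.09, adjusted p = 3.44e-13).

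Other TNF family ligands (32 peaks of 10 of 13 genes) gave 22 and 3 with stimulation (median log2 change 0.95), against 28.9% and 27.4% of all peaks. For PGE2 in stimulated WT they gave 3 and 18 (median -0.70), against 20.2% and 20.4% of all peaks. The Tnfsf14 promoter, of the ligand LIGHT (chr17:57193598-57194947), was 1432 ± 143 with stimulation and 642 ± 48.2 with PGE2 (-1.15 ± 0.08, adjusted p = 2.06e-13). A distal peak of Tnfsf11, which encodes RANKL (chr14:78330109-78331161), went the other way, from 41.3 ± 8.49 to 136 ± 20.1 (1.71 ± 0.20, adjusted p = 1.61e-08). TNF production and shedding genes (43 peaks of 9 of 9 genes) gave 17 and 14 with stimulation, and 10 and 12 for PGE2 in stimulated WT, with the same shares of all peaks beside them. An exon peak of Adam17, the TNF sheddase (chr12:21335695-21336674), rose from 31 ± 7.14 to 365 ± 35.8 with stimulation and was 76.2 ± 9.14 with PGE2 (-2.25 ± 0.19, adjusted p = 4.17e-12). An intron peak of Rhbdf2, a partner that carries ADAM17 to the surface (chr11:116618444-116619204), rose from 49.9 ± 5.74 to 426 ± 32.6 and was 152 ± 14 with PGE2 (-1.48 ± 0.13, adjusted p = 2.08e-11). A distal peak of Zfp36l2 (chr17:84140353-84142229) rose with PGE2 in stimulated WT, from 348 ± 29.7 to 674 ± 85.3 (0.95 ± 0.10, adjusted p = 2.77e-09). In the KO, PGE2 gave 0 called peaks in these 4 lists in either state by limma, against 0% of all peaks at rest and 0.0026% with stimulation. In the order given, 2, 7, 3 and 2 peaks had an unadjusted p under 0.05 at rest, and 0, 3, 0 and 1 with stimulation. Stimulation itself raised 11, 48, 20 and 17 of their peaks in the KO and lowered 5, 11, 1 and 12, against 28.1% and 26.4% of all peaks.

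Peaks elsewhere in the genome that tracked the promoter peaks were ranked by Pearson's r of log2 values over the 30 libraries, among 34336 peaks, as a description of libraries that share their groups. For the Tnf promoter the nearest were peaks of Shank1 (r = 0.99), Ccl1 (0.99) and Gadd45b (0.98), and for the Lta peak those of Gse1, Gdpd5 and Nedd9 (0.96 each). The Fasl promoter was followed by peaks of Perp, Tgif1 and Itga4 (0.93 each). The Ltb promoter (Asb2 0.84, Cxxc5 0.81 and Zbtb7b 0.81) and the Tnfsf10 promoter (6030440G07Rik 0.70, Sp7 0.68 and Gm9999 0.67), which were not called in any comparison, had looser companions.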

How the data were processed

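The data are 30 ATAC-seq libraries in 8 groups. The deposited table holds a signal per peak and library, a read count divided by a size factor from DESeq2 (per the submitters' processing notes). The notes name Trimmomatic 0.39, Bowtie2 2.4.1, MACS2 2.2.7.1 and mm10. The DESeq2 version and the handling of duplicates and of the transposase offset are not given in the sources used here. Gene names and classes are the table's. Of 9546 promoter peaks with a RefSeq entry, 88.7% hold a start of their gene, and distances use RefSeq starts (GRCm38.p6).

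limma 3.58.1 (R 4.3.3) was fitted with trend and empirical Bayes moderation to log2(value + 1) for the 38525 peaks with a mean of at least 10, which include all 31 members. The fit had 1 mean per group and no replicate block. Tests are two-sided, with Benjamini-Hochberg adjustment over all peaks within a comparison and a call at 0.05. Interactions are the WT minus the KO effect, or the effect with stimulation minus that at rest. The fit recovered the largest known changes in simulated data, where recovery of the smaller ones was not required. Those data had independent libraries and the same spread setting for every peak. The check therefore does not cover small changes or effects shared by same-numbered libraries.

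Dividing each library by the worth of 1 read gave whole reads for 100% of values (tolerance 0.05, largest deviation 0.0228), and edgeR 4.0.16 and DESeq2 1.42.0 were run on the recovered reads as alternatives. An automatic check of the file recognised this in 19 of the 30 libraries and not in the other 11, so those alternatives rest on the recovery made here, and the limma results do not.

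The rule for naming peaks covers all 31. It asked for every library at each peak. The text prints this for 9 peaks and in part for 2. For the others it gives ranges of some WT groups, and for most of them none of the KO. All libraries of these peaks are drawn in the map of 31 peaks. Pathway peaks were taken from those of smallest p per list and comparison, at most 3 each, and the text does not print all of these. The members and lists were chosen with earlier results of these data known. Conditioned medium, named in the series text, was not analysed here. The result of 1 further marker list is not reported here.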

Additional observations from a re-analysis of the deposited data

Results flagged for a closer look

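In 12 of the 186 groups of 4 libraries that were looked at (31 peaks by 6 groups), 1 library stood apart from the other 3 (Dixon's test at 95%). Chance gives about 1 in 20. In stimulated WT they were replicate 1 at Tnf +1.3 kb (708, the others 455 to 481) and at Tnfsf10 -5.9 kb (89.1, the others 55.5 to 57.1), and replicate 4 at Fasl +13.5 kb (696, the others 621 to 628). In resting WT they were replicate 4 at Fasl +13.5 kb (363, the others 428 to 440.5) and at Tnfsf10 -25.6 kb (86, the others 63.2 to 65.8). In stimulated WT with PGE2 they were replicate 4 at Fasl -10.6 kb (106, the others 136 to 139.6) and replicate 2 at Fasl +32.0 kb (24.5, the others 17.8 to 18.3). In the stimulated KO it was replicate 1 at Fasl +0.3 kb (911, the others 757 to 772). In the stimulated KO with PGE2 they were replicate 3 at Fasl -6.3 kb (506, the others 684 to 707) and at Fasl +32.0 kb (44, the others 72.6 to 76.9), and replicate 1 at Fasl +30.3 kb (135, the others 85.2 to 87.1). In the resting KO with PGE2 it was replicate 1 at Tnfsf10 -5.9 kb (21, the others 12.8 to 14.1).

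The PGE2 effect in WT differed between stimulated and resting cells at 19 peaks (limma, differences in log2 change). At Tnf the differences were -1.39 at the promoter and -0.70 at the exon peak, and at Lta -0.69. At Fasl they were -1.10 at +2.1 kb, -0.50 at +13.5 kb, -3.12 at +26.9 kb, -3.28 at +30.3 kb, -3.17 at +32.0 kb, -1.67 at +37.3 kb and -1.27 at +113.8 kb. The positive Fasl differences were 0.67 at -6.3 kb, 0.65 at +9.2 kb, 0.81 at +23.4 kb and 0.57 at +75.4 kb. At Tnfsf10 they were -1.04 at -31.7 kb, -0.88 at -25.6 kb, -2.16 at -5.9 kb, 0.80 at +5.8 kb and -0.57 at +13.9 kb.

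Between genotypes the resting PGE2 effect differed by 0.52 at Fasl +21.5 kb and by 0.79 at Fasl +53.3 kb, as WT minus KO. Under stimulation it differed by -1.41 at the Tnf promoter. At Fasl it differed by -1.93 at +26.9 kb, -2.15 at +30.3 kb, -2.01 at +32.0 kb, -0.92 at +37.3 kb and -1.11 at +113.8 kb, and by 0.61 at -6.3 kb, 0.57 at +9.2 kb, 0.65 at +21.5 kb and 0.53 at +53.3 kb. At Tnfsf10 it differed by -1.07 at -31.7 kb, -1.94 at -5.9 kb and -0.53 at +13.9 kb.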

How the results depend on the processing

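Of 61 called pairs of peak and comparison (PGE2 at rest, stimulation, and PGE2 with stimulation, all WT), none reversed under any alternative run, 7 lost their call under at least 1 of the 10 alternatives other than leaving out a library, and 12 lost it when some single library was left out. For PGE2 in resting WT the count of 13 became 8 with quantile normalisation and 7 to 12 with a library left out (8 without replicate 3 and 7 without replicate 4 of the PGE2 group). The stimulation call in WT at Fasl +43.6 kb was lost without replicate 1 or 2 of the stimulated or 1 or 4 of the resting group (adjusted p from 0.0548 to 0.1), and with quantile normalisation (0.269).

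A filter on a mean of at least 100 left 21 members, and with fewer peaks tested the counts were 17 for stimulation in WT, 13 for PGE2 in stimulated WT, 12 for the interaction of PGE2 and stimulation, 7 for the genotype difference of PGE2 under stimulation and 1 for KO against WT at rest. The count of 2 for KO against WT was 1 with a pseudocount of 8, scaling to reads in peaks or edgeR, 0 with quantile normalisation or with only the compared groups fitted, and 0 to 1 with a library left out. For these changes other than the filter the cause was not tested. With a library left out the other counts were 24 to 26 (stimulation in WT), 21 to 26 (stimulation in the KO), 20 to 22 (PGE2 in stimulated WT), 4 to 6 (stimulation under PGE2), 16 to 19 (PGE2 and stimulation), 2 to 3 and 11 to 14 (genotype and PGE2 at rest and stimulated), and 0 for the 3 comparisons with none.

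The labels do not say that a replicate number marks a shared animal or day. Deviations from the group means correlated between same-numbered libraries from -0.02 to 0.53 (median 0.06, 39 of 99 pairs above 0.1), and between differently numbered ones from -0.38 to 0.23 (median -0.02, 26 of 294 above 0.1). Of the 30 libraries, 26 but not all correlated best, on average, with libraries of their own number, which is a hint of pairing from the data and not from the design. Not every same-numbered pair was above 0.1, which does not settle the matter. The fit without the block was kept because the labels do not state a pairing. If the numbers do mark pairs, that fit ignores them, and overlap of group ranges does not compare paired libraries. With the replicate block the count for the genotype difference of PGE2 at rest was 4 in place of 2, with Tnf +1.3 kb (adjusted p = 0.00463) and Lta -5.4 kb (0.0281) added, and no other count moved by over 1.5 times. For PGE2 in stimulated WT it was 25 in place of 22, with Ltb (-0.31, adjusted p = 0.00373), Tnf +1.3 kb (-0.28, 0.0121) and Fasl -16.2 kb (0.18, 0.0374) added. The genotype difference of that effect was then also called at Ltb (-0.43, 0.00899), Lta -5.4 kb (-0.38, 0.0235) and Tnfsf10 +5.8 kb (0.36, 0.0205). The other changes were single calls gained at Fasl -16.2 kb (stimulation in the KO, and PGE2 and stimulation), +53.3 kb (PGE2 and stimulation) and +113.8 kb (stimulation under PGE2), and 1 lost at Fasl +26.9 kb (PGE2 in resting WT). Quantile normalisation shifted the median of all peaks from -0.02 to -0.11 for stimulation in WT and from -0.03 to -0.13 in the KO. It turned the split of all called peaks from 11120 higher and 10572 lower to 9735 and 13915 in WT, and from 10816 and 10185 to 9695 and 14107 in the KO. For KO against WT the split was 420 and 245, 504 and 151 with scaling to reads in peaks, and 160 and 147 with quantile normalisation. Depth limits the low peaks: Fasl +26.9 to +32.0 kb and Tnfsf10 -5.9 kb held 0 to 4 reads in their lowest library.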

Other observations

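On chromosome 17, 19 other peaks lay within 50000 bases of Tnf, Lta or Ltb. With stimulation in WT 5 rose and 5 fell, against 28.9% higher and 27.4% lower of all peaks. PGE2 in stimulated WT raised 3 and lowered 4, against 20.2% and 20.4% of all peaks. A peak between Ltb and Tnf that the table assigns to Mir6973a (chr17:35197133-35197579) measured 57.4 ± 17.2 (SD, n = 4) at rest, 248 ± 40.9 with stimulation and 89.4 ± 13.6 with PGE2 as well. An exon peak of Nfkbil1, an IκB-like gene next to Lta (chr17:35219424-35220776), measured 147 ± 11.9, 664 ± 106 and 245 ± 38 in the same groups. By limma the PGE2 differences were -1.46 ± 0.21 (adjusted p = 6.96e-07) and -1.44 ± 0.11 (adjusted p = 4.19e-13). Of 3 peaks of Aif1, a gene known from macrophages, 2 fell with stimulation, the intergenic one (chr17:35179456-35180752) from 277 ± 20.4 to 151 ± 13.3, with 221 ± 8.28 when PGE2 was present. The promoter of the splicing helicase gene Ddx39b (chr17:35241174-35243474), in the same stretch, measured 1528 ± 98, 1574 ± 55.4 and 1511 ± 18, and was not called. These peaks were chosen after their values were seen.

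Around Fasl, 2 other peaks lay within 50000 bases, and the 1 assigned to Tnfsf18, which encodes GITR ligand (chr1:161631601-161632588), was 157 ± 38.2 at rest, 229 ± 22.8 (n = 3) with PGE2, 198 ± 34.4 with stimulation and 225 ± 21.7 with both. The peak of Suco on the other side (chr1:161808822-161809813) was not called for stimulation, or for PGE2 in either state. Of 4 peaks near Tnfsf10, 1 in an intron of Nceh1 (chr3:27269965-27270802) rose with stimulation from 37.8 ± 8.70 to 88.9 ± 7.20 and was 38.1 ± 6.57 with PGE2 (-1.21 ± 0.20, adjusted p = 6.78e-06).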
